A study of Mus musculus with 16 samples.

Results

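Genes that write, maintain or remove DNA methylation were followed in mouse leukemia cells: Dnmt1, Uhrf1, Dnmt3a, Dnmt3b, Tet1, Tet2, Tet3, Idh1 and Idh2. They were chosen by name for their place in this pathway, and are 9 of the 21177 genes of the deposited table. Tests took in genes with a rate over 0 in no fewer than 12 of all 16 libraries, 7411 in number, and 7 of the 9 are among them. The cells came from YBX1-/- and from WT mice of the C57BL/6 strain, with bone marrow given as the tissue. All had been labelled for 24 h with 50 µM 4-thiouridine (4sU), a uridine analog that enters new RNA and is read as T-to-C changes in sequencing, a method known as SLAM-seq. The label was then chased with 10 mM uridine, and RNA was taken at 0, 0.5, 1, 3, 6, 12, 18 and 24 h of the chase in YBX1-/- cells and in WT cells, with 1 library for each genotype and time. YBX1 binds RNA, and the question named in the title of the series is whether it regulates mRNA stability in myeloid leukemia. The oncogene that drives the leukemia, the way YBX1 was deleted and the number of animals are not given in the sources used here.

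DNA methylation is copied onto new strands by DNMT1, which UHRF1 brings to hemimethylated sites after replication. DNMT3A and DNMT3B place methyl groups on unmethylated DNA, and the TET enzymes oxidise 5-methylcytosine so that it can be lost or replaced. TET enzymes need 2-oxoglutarate, which the isocitrate dehydrogenases IDH1 and IDH2 make. DNMT3A, TET2, IDH1 and IDH2 are among the genes most often mutated in human myeloid leukemia, and the mutant IDH enzymes make 2-hydroxyglutarate, which inhibits TET enzymes.

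The value measured for each gene is a T-to-C rate over an interval of its 3′ UTR, deposited as a fraction and given here in percent. A falling rate reports loss of labelled transcripts or their dilution by new ones, and the amount of a transcript cannot be read from it. All 9 intervals lie in annotated UTR of the mouse build GRCm38, begin right after the stop codon (with the exception of Idh2) and overlap no other gene. Dnmt1 (ENSMUSG00000004099) was read over the 312 bases of chr9:20907209-20907520 on the minus strand, and Uhrf1 (ENSMUSG00000001228) over the 984 bases of chr17:56322503-56323486 on the plus strand. Dnmt3a (ENSMUSG00000020661) was read at chr12:3907748-3914443 and Dnmt3b (ENSMUSG00000027478) at chr2:153686400-153687730, both on the plus strand, over 6696 and 1331 bases. The TET intervals are all on the minus strand: Tet1 (ENSMUSG00000047146) has 7962 bases at chr10:62804570-62812531, Tet2 (ENSMUSG00000040943) 3058 bases at chr3:133463679-133466736 and Tet3 (ENSMUSG00000034832) 5669 bases at chr6:83362373-83368041. Idh1 (ENSMUSG00000025950) was read over 849 bases at chr1:65158616-65159464 and Idh2 (ENSMUSG00000030541) over 354 bases at chr7:80094850-80095203, both on the minus strand. The Idh2 interval also takes in 85 coding bases of 1 annotated transcript.

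The genes of long 3′ UTRs share a sequence that the choice of genes did not use. Their intervals hold matches to the seed of the miR-29 family, microRNAs known to target DNMT3A, DNMT3B and TET transcripts. The 3 mature miR-29 sequences are shown because they have 1 seed in common, which the capitals mark (bases 2 to 8, RefSeq, build GRCm38.p6):
miR-29a-3p: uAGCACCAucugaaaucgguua
miR-29b-3p: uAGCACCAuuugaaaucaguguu
miR-29c-3p: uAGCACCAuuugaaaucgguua

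The matching letters in a transcript are TGGTGCT, searched on the transcript strand. Tet3 holds 8 of them, and none of the 317 tested intervals of like length (0.8 to 1.25 times its own) holds as many. Tet2 holds 5 (as many in 0 of 940 intervals of like length), Tet1 holds 7 (0 of 120) and Dnmt3a holds 5 (1 of 203, or 0.493%). Dnmt3b holds 1, and 12.7% of 1214 intervals of like length hold at least 1. No match lies in the intervals of Dnmt1, Uhrf1, Idh1 and Idh2, which are all shorter. Over 7389 tested intervals, 15.2% hold a match, at 0.108 matches per kb, while Tet2 has 1.64 per kb and Tet3 1.41 per kb.

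The windows below show the matches that continue with an A, the 8-letter form TGGTGCTA, which 2.83% of the tested intervals of any length hold. Tet3, Tet2 and Dnmt3a hold 2 each, and 1.26%, 0.106% and 1.48% of intervals of like length hold as many. The 1 match of Tet1 is less unusual, since 10.8% of intervals of like length hold as many. The capitals mark the match, and all windows are written 5′ to 3′ on the transcript strand.
Tet3, chr6:83364326-83364353, minus strand: gtctaataaaTGGTGCTAtggtgtttca
Tet3, chr6:83363767-83363794, minus strand: cgcttttagtTGGTGCTAaacttctccc
Tet2, chr3:133466163-133466190, minus strand: taacattaaaTGGTGCTAcaaatggtgt
Tet2, chr3:133465106-133465133, minus strand: cacatcacgaTGGTGCTAcccagattgc
Dnmt3a, chr12:3911395-3911422, plus strand: gggaggtagcTGGTGCTAgcaccagggt
Dnmt3a, chr12:3911464-3911491, plus strand: ggtcccaagcTGGTGCTAattcctctca
Tet1, chr10:62806032-62806059, minus strand: ttgaaggagaTGGTGCTAgctgaacaat

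A match is a run of letters and does not show that a microRNA binds there. The levels of the miR-29 family were not analysed here. The study's title names m6A, an RNA methylation that is placed on a consensus with the core GGACT. Dnmt3a holds 12 of these cores, and 2.96% of intervals of its length class hold as many. The other counts are less unusual for the length: Tet1 holds 10 (as many in 14.2% of intervals of like length), Tet2 5 (17.3%), Tet3 6 (34.4%), Uhrf1 1 (62.1%) and Dnmt3b 1 (73.0%). No GGACT lies in Dnmt1, Idh1 or Idh2, while 64.2% of tested intervals hold one. In the length classes of Dnmt1, Idh1 and Idh2, 35.1%, 58.6% and 36.1% of the intervals hold one. The Pumilio element TGTANATA, bound by decay-promoting Pumilio proteins, occurs 3 times in Tet1 and in Tet3 and once in Dnmt3a and Tet2. As many occur in 31.7% of intervals of like length for Tet1, 16.7% for Tet3, 71.9% for Dnmt3a and 46.5% for Tet2. At least 1 lies in 75% of them for Tet1 and 65.0% for Tet3 (26.5% of tested intervals of any length).

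**Figure D1:**
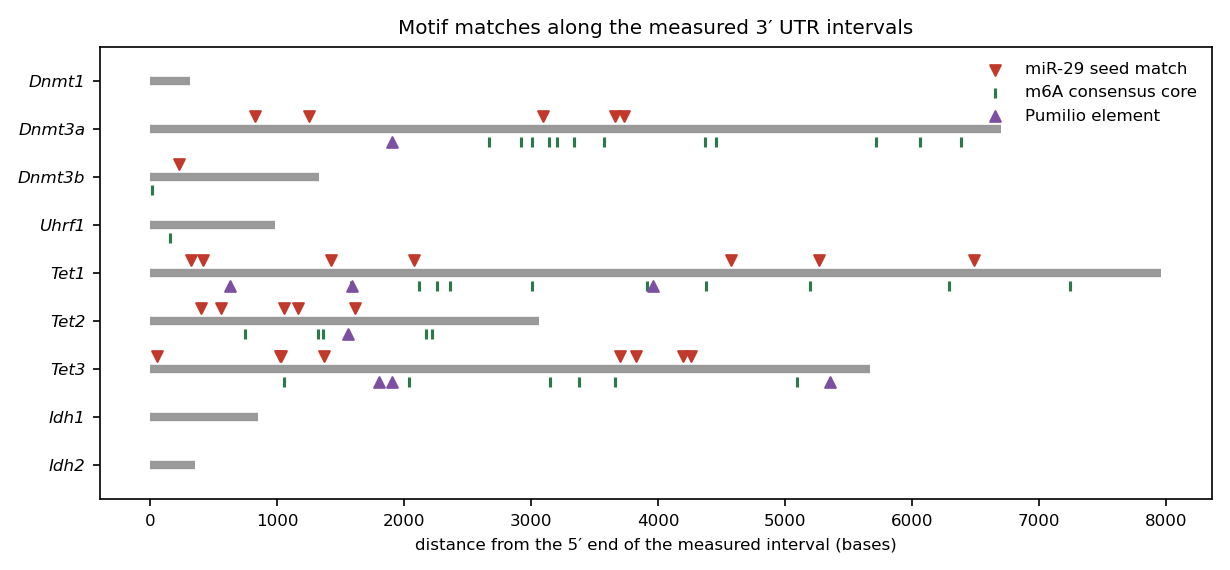
Positions of the miR-29 seed match, the m6A core and the Pumilio element along the 3′ UTR interval of each gene, in bases from its 5′ end; grey bars are drawn to the interval's length. The miR-29 matches lie in the 5 intervals of Dnmt3a, Dnmt3b, Tet1, Tet2 and Tet3, with 8 in Tet3.

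The genes differ widely in how much sequence stands behind a rate. Mean CPM over all libraries, which the authors deposited, was 76.3 for Idh1, 32.1 for Idh2, 17.0 for Tet3, 16.8 for Uhrf1, 12.8 for Tet2, 12.4 for Dnmt1, 6.54 for Dnmt3a, 1.59 for Dnmt3b and 0.210 for Tet1. The deposited mean coverage divided by the number of Ts was 150 in Idh2 and 144 in Idh1, 59.2 in Dnmt1, 32.8 in Uhrf1, 8.06 in Tet2, 7.35 in Tet3, 1.95 in Dnmt3a and 1.94 in Dnmt3b, with a median of 16.1 over tested genes. Among the 7 of these genes that were tested, rates of the isocitrate dehydrogenases are therefore the best covered, and those of Dnmt3a the least. Dnmt1 has an unusual base composition, with 41.0% T in its interval (percentile 99.5 of tested genes).

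Series-wide, the median rate of tested genes was below WT in YBX1-/- during the first hour (29.8 to 36.7% in YBX1-/-, 42.9 to 49.2% in WT). It was also below WT at 3, 6, 12 and 24 h, with 4.76% in YBX1-/- and 10.2% in WT at 6 h. At 18 h it was above WT (1.32% in YBX1-/- and 1.14% in WT). The YBX1-/- 0 h library stood apart, where 3.64% of tested genes were at 0 (0.0945% in WT at 0 h). Myeloid markers were present (8 of 8 above 1 CPM, 1.94 to 7376 CPM), while erythroid, lymphoid and stromal markers were at or near 0 (0 of 4 each above 1 CPM, summed 1.07, 0.347 and 0.294 CPM). Ybx1 itself had rates of 3.08 to 72.0% in YBX1-/- and 5.08 to 61.4% in WT, which do not check the genotype, since a rate is a share. The libraries are from bulk RNA, so a different mix of cells and a different rate within cells cannot be told apart.

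All 7 tested genes lost most of their label within the chase in both genotypes. The slope of log2(rate + 0.1 percentage points) over hours was negative and passed the threshold (adjusted p under 0.05) for 7 of 7 genes in YBX1-/- and 7 of 7 in WT, on a background of 91.5% of tested genes in YBX1-/- and 95.2% in WT. Their median slope was -0.26 log2 per h in YBX1-/- (all tested genes -0.25) and -0.30 in WT (all tested genes -0.27). The medians were close to those of all genes, but single genes spread more widely: in YBX1-/- the slopes of Dnmt1 (-0.311, percentile 15.4) and Dnmt3a (-0.295, percentile 21.5) were steeper, and those of Idh2 (-0.210, percentile 76.0) and Tet3 (-0.165, percentile 90.1) shallower, than the quartiles of all tested genes (-0.286 to -0.212). Once the library median was subtracted, none of the 7 passed in either genotype. Of all 7411 tested genes, 57 passed in YBX1-/- and 340 in WT at that setting. The half-life of the label, minus 1 divided by the slope, was 3.22 to 6.05 h in YBX1-/- and 2.86 to 3.88 h in WT.

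**Figure D2:**
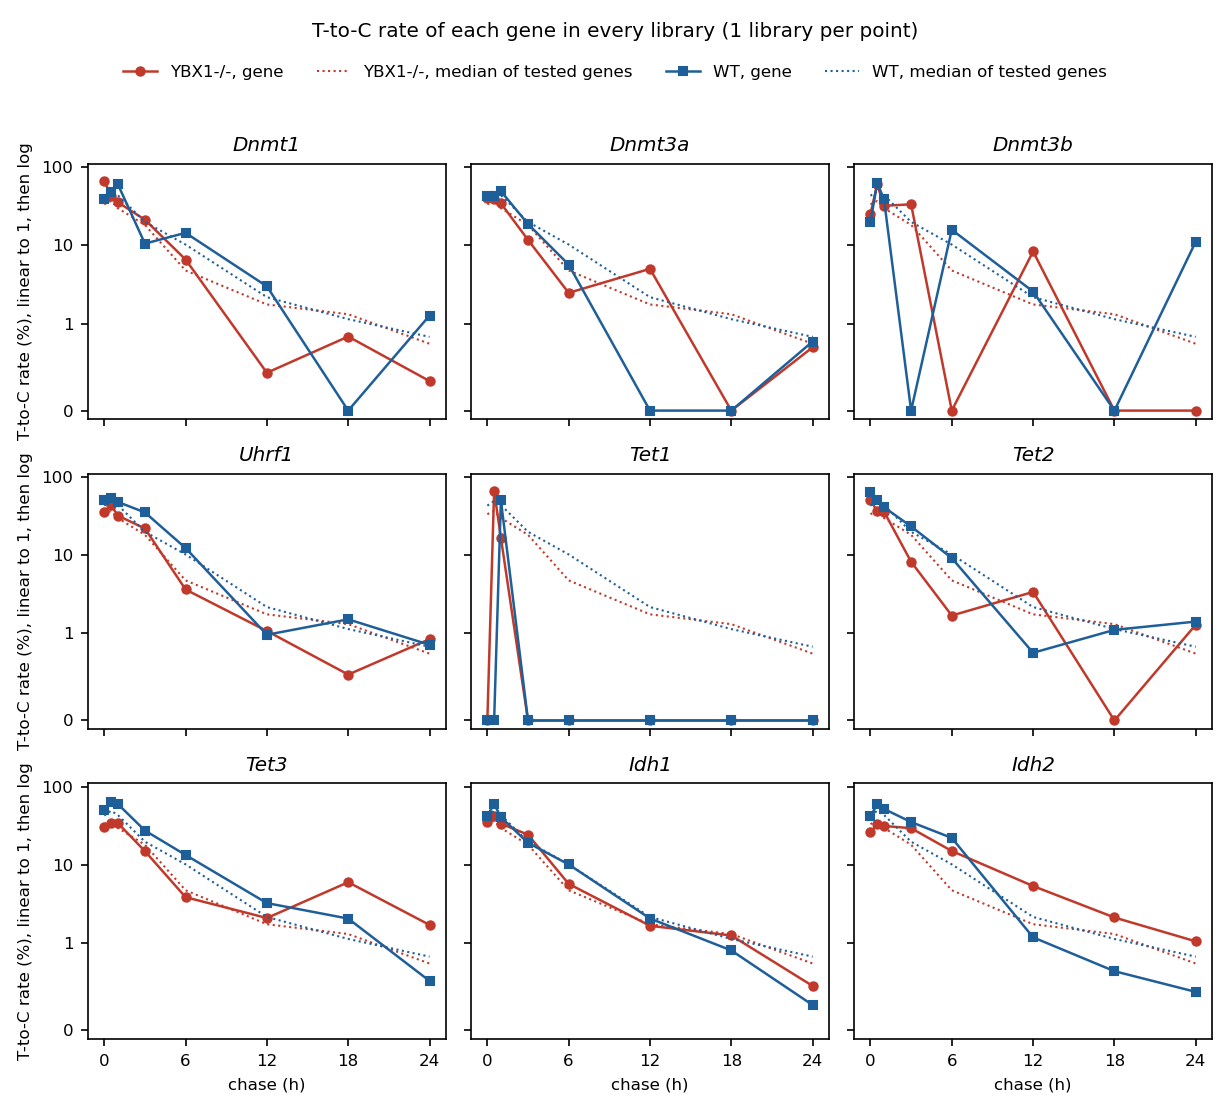
T-to-C rate in percent against hours of chase for each of the 9 genes, 1 library per point, with YBX1-/- in red and WT in blue; dotted lines are the medians of all tested genes, and the axis is linear up to 1% and logarithmic above. Idh2 is above WT in YBX1-/- at 12, 18 and 24 h and below it before, and Tet3 is above WT at 18 and 24 h.

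In the first hour, YBX1-/- rates did not overlap WT rates and were lower for 4 of the 7 tested genes, Uhrf1, Dnmt3a, Tet3 and Idh2. This pattern held for 43.1% of all tested genes, and the opposite pattern for 0.472%. For comparison between genotypes the library median was therefore subtracted from each log2 value. The decay rate difference is the difference in slope (YBX1-/- minus WT) of these centred values; a positive value means that label was lost more slowly in YBX1-/-, relative to the typical transcript. It passed the threshold for 0 of the 7 genes, on a background of 0.108% of tested genes (8 of 7411), and 929 genes had an unadjusted p under 0.05 in limma. Among the 7 genes, 4 had positive and 3 negative differences, with a median of 0.017 log2 per h (all tested genes 0.0037). The labelling level difference, the mean centred difference over the 8 times, passed for 0 of 7, on a background of 0% (0 of 7411 in limma, with 415 at an unadjusted p under 0.05). With 1 library per genotype and time, these tests measure scatter between time points and not between animals.

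Dnmt1, the maintenance methyltransferase, had rates in YBX1-/- of 66.7, 42.3, 35.5, 21.2, 6.58, 0.435, 0.851 and 0.340% in time order. In WT they were 38.4, 47.4, 60.3, 10.5, 14.4, 2.99, 0 and 1.27%. The highest value of YBX1-/- was in the 0 h library that stands apart, and the genotypes overlapped early and late. The order of the genotypes changed back and forth: YBX1-/- was above WT at 0, 3 and 18 h and below it at the other 5 times. The decay rate difference was -0.031 log2 per h (SE 0.066, 95% CI -0.18 to 0.12, adjusted p = 0.895) and the level difference 0.20 log2 (SE 0.54, adjusted p = 0.952). The sign of the decay difference turned without the 24 h libraries (0.047), and that of the level difference turned without the 18 h libraries (-0.21) or without centring (-0.15).

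Uhrf1, the partner of DNMT1 that reads hemimethylated DNA, was above 0 in every library. Its rates were 35.6, 43.8, 32.0, 21.9, 3.64, 1.08, 0.528 and 0.935% in YBX1-/- and 50.5, 53.6, 47.8, 35.1, 12.3, 0.985, 1.52 and 0.870% in WT. YBX1-/- was lower at every time up to 6 h and again at 18 h. After centring, its first-hour difference was -0.013 log2 (SD 0.14 over 3 time points), so that the early gap was close to that of the typical transcript. At 3 and 6 h the centred difference was -0.60 log2 (SD 0.067, 2 time points), percentile 18.2 of tested genes. Its decay rate difference was -0.010 log2 per h (SE 0.030, 95% CI -0.080 to 0.059, adjusted p = 0.929) and the level difference -0.27 (SE 0.25, adjusted p = 0.831). The decay difference changed sign without the 18 h libraries (0.019) and without centring (0.010).

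Dnmt3a, a de novo methyltransferase, had rates of 40, 39.1, 34.3, 11.7, 2.47, 5, 0 and 0.727% in YBX1-/-. In WT its rates were 42.2, 42.7, 49.0, 18.7, 5.66, 0, 0 and 0.794%. YBX1-/- was lower at 0 to 6 h and higher at 12 h alone, where WT was listed at 0. An exact 0 can mean no converted reads or no reads, and this interval is thinly covered. For Dnmt3a the decay rate difference was 0.035 log2 per h (SE 0.088, 95% CI -0.17 to 0.24, adjusted p = 0.914) and the level difference 0.72 (SE 0.72, adjusted p = 0.841), the largest of the 7 genes in size. Both rest on the 12 h pair: without it, the decay difference was -0.0067 and the level difference -0.026.

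Dnmt3b, the other de novo methyltransferase, was above 0 in 11 libraries and was not tested. Its rates were 25, 60, 31.9, 33.3, 0, 8.33, 0 and 0% in YBX1-/- and 20, 62.5, 38.5, 0, 15.8, 2.56, 0 and 11.1% in WT. Both genotypes peaked at 0.5 h, and values from 3 h on jumped between 0 and 33.3%.

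Tet1 had the fewest reads of the 9 genes. It was above 0 in 3 libraries, at 0.5 h (66.7%) and 1 h (16.7%) in YBX1-/- and at 1 h (50.0%) in WT. No loss of label can be read from so few values.

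Tet2, the TET enzyme often mutated in myeloid disease, had rates of 50.0, 36.6, 36.0, 8.22, 1.69, 3.39, 0 and 1.29% in YBX1-/-. In WT they were 64.0, 50.0, 41.0, 23.2, 9.18, 0.778, 1.11 and 1.42%. The genotypes overlapped in the first hour, and at 3 and 6 h YBX1-/- was below WT. That middle window gave a centred difference of -1.32 log2 (SD 0.053, 2 time points), percentile 6.60 of tested genes and the lowest of the 7. For Tet2 the decay rate difference was -0.038 log2 per h (SE 0.069, 95% CI -0.20 to 0.12, adjusted p = 0.880) and the level difference -0.48 (SE 0.56, adjusted p = 0.865). The decay difference turned positive without the 18 h libraries (0.035), where YBX1-/- was listed at 0, and over 0 to 12 h (0.15).

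Tet3 was the TET gene with the most reads. Its rates in YBX1-/- were 30.4, 34.8, 34.4, 15.1, 3.89, 2.11, 6.03 and 1.72%. In WT they were 50.3, 64.6, 60.2, 27.6, 13.4, 3.27, 2.07 and 0.568%. YBX1-/- was lower at all 6 times to 12 h and higher at 18 and 24 h, and its 18 h value was above its own values at 6 and 12 h. In WT, Tet3 stood above the typical transcript early (percentiles 80.1, 92.8 and 92.5 of its library in the first hour), while in YBX1-/- its percentiles were 40.1, 41.7 and 73.9. The order had turned by 18 h, with percentile 93.5 in YBX1-/- and 74.8 in WT. The slope was -0.17 log2 per h in YBX1-/- (half-life 6.05 h) and -0.27 in WT (half-life 3.65 h). The centred decay rate difference was 0.088 (SE 0.022, 95% CI 0.038 to 0.14, percentile 83.7) and did not pass after adjustment over all genes (adjusted p = 0.160). It depended on the last 2 times: over 0 to 12 h it was -4.99e-05 and over 0 to 6 h it was -0.063. The level difference was 0.0066 log2 (SE 0.30, adjusted p = 0.999), with YBX1-/- higher at 2 of 8 times after centring, and without centring it was -0.34, the same as the median of all genes (-0.34).

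**Figure D3:**
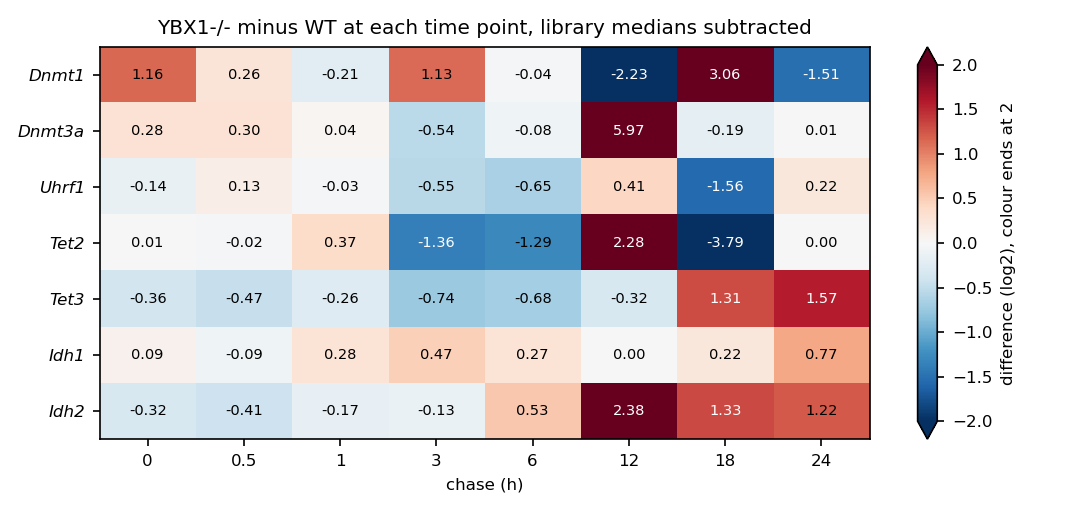
Centred log2 difference (YBX1-/- minus WT) for the 7 tested genes at each hour of the chase; red is higher in YBX1-/- and blue higher in WT, and the colour scale ends at 2. Idh2 is at -0.32 at 0 h and 2.38 at 12 h, and Tet3 at -0.36 at 0 h and 1.57 at 24 h.

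Idh1, the cytosolic isocitrate dehydrogenase, had the highest mean CPM of the 9 genes, and its centred differences varied least over the chase among the 7 tested (SD 0.27 log2 over 8 times). Its rates were 35.5, 42.1, 33.8, 24.4, 5.75, 1.68, 1.26 and 0.511% in YBX1-/- and 42.8, 60.1, 40.8, 19.2, 10.2, 2.08, 0.919 and 0.291% in WT. The genotypes overlapped in each window. After centring, YBX1-/- was higher at 7 of 8 times, though at 12 h by only 0.0014 log2. The level difference over the 8 times was 0.25 log2 (SE 0.19, adjusted p = 0.793 in limma). Before centring, YBX1-/- was higher at 3 of 8 times. Without centring the level difference was -0.095, with the median of all genes at -0.34. Label decay differed by 0.017 log2 per h (SE 0.022, 95% CI -0.032 to 0.066, adjusted p = 0.814).

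Idh2, the mitochondrial isocitrate dehydrogenase, crossed between the genotypes over the chase. Its rates in YBX1-/- were 26.2, 33.3, 31.6, 29.5, 15.1, 5.39, 2.14 and 1.06%. In WT they were 42.1, 59.4, 52.0, 35.4, 22.2, 1.19, 0.680 and 0.442%. YBX1-/- was lower than WT at all 5 times to 6 h and higher at 12, 18 and 24 h, where the ranges of the genotypes overlapped (1.06 to 5.39% in YBX1-/- and 0.442 to 1.19% in WT). After centring, Idh2 was lower in YBX1-/- up to 3 h (-0.13 log2 at 3 h) and higher from 6 h on (0.53 log2 at 6 h). Relative to other transcripts of the same library, Idh2 held its label well in the middle of the chase in both genotypes: percentiles at 3 and 6 h were 87.5 and 89.0 in YBX1-/- and 88.7 and 90.6 in WT. At 12 h the percentile was 85.4 in YBX1-/- but 29.1 in WT.

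The slope of Idh2 was -0.21 log2 per h in YBX1-/- (half-life 4.76 h) and -0.32 in WT (half-life 3.17 h). The centred decay rate difference over the whole chase was 0.085 log2 per h (SE 0.029, 95% CI 0.019 to 0.15, percentile 82.8) and did not pass (adjusted p = 0.267). Over 0 to 12 h it was 0.23 (SE 0.031, 95% CI 0.15 to 0.30, percentile 86.4) and passed (adjusted p = 0.0423), on a background of 3.62% of tested genes called over that window. It was the only one of the 7 genes to pass there. Dnmt3a had the larger value over that window (0.45, SE 0.12, 95% CI 0.15 to 0.75, percentile 96.7, adjusted p = 0.0741), which takes in the 12 h pair with WT at 0. Dnmt1 had -0.23 (SE 0.065, 95% CI -0.38 to -0.069, adjusted p = 0.0792), and the other 4 had an adjusted p of 0.381 or more. The 0 to 12 h window also takes in the 12 h pair of Idh2, its largest centred difference (2.38 log2). Over 0 to 6 h the Idh2 decay rate difference was 0.14 and did not pass (adjusted p = 0.237). Without the 12 h libraries its whole-chase difference was 0.073 (adjusted p = 0.0659), in the same direction. With intervals weighted by CPM its whole-chase difference was 0.059 (adjusted p = 0.571). The level difference was 0.55 log2 (SE 0.33, adjusted p = 0.779), and over 0 to 6 h it was -0.10. The UTR-only interval of the gene (chr7:80094846-80095115, 270 bases) was examined after seeing the data. With it the whole-chase decay rate difference was 0.086 (adjusted p = 0.274), which again did not pass. This interval lies almost wholly inside the one used, so it is not a separate measurement. It was not fitted over 0 to 12 h.

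**Figure D4:**
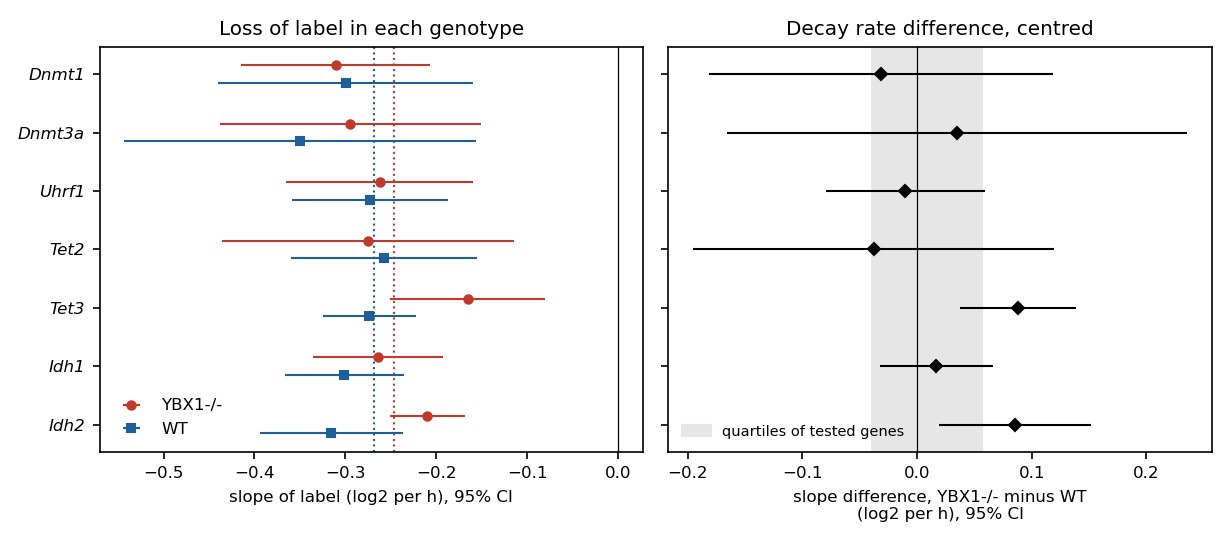
Left, slope of label in log2 per h with its 95% confidence interval for the 7 tested genes, YBX1-/- above WT, with dotted lines at the medians of all tested genes. Right, centred slope difference (YBX1-/- minus WT) with its 95% confidence interval and the quartiles of all tested genes (-0.040 to 0.057) in grey; the intervals of Tet3 and Idh2 lie above 0, and neither gene passed after adjustment.

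A fit of an exponential with a constant floor to the rates themselves weights the early, high values more than the late, low ones. Idh2 had a half-life of 5.87 h in YBX1-/- (4.98 to 6.42 h with each time point left out in turn) and 4.30 h in WT (3.37 to 4.90 h). These ranges miss each other narrowly, and ranges apart with the longer half-life in YBX1-/- occurred in 8.51% of tested genes. Idh1 had 3.07 h in YBX1-/- and 2.57 h in WT, with overlapping ranges. The other 5 genes had shorter half-lives in YBX1-/- by this fit. Of these, Tet2, with 1.34 h in YBX1-/- (1.06 to 1.59 h) and 1.91 h in WT (1.69 to 2.17 h), had ranges apart, as did 12.2% of tested genes with the shorter half-life in YBX1-/-. Tet3 had 2.37 h in YBX1-/- and 3.09 h in WT, the opposite order to its log-linear slope, with a floor of 2.13% in YBX1-/-. Dnmt1 had 1.45 h in YBX1-/- and 2.90 h in WT, Dnmt3a had 1.81 h in YBX1-/- and 2.52 h in WT, and Uhrf1 had 2.66 h in YBX1-/- and 3.38 h in WT, each with overlapping ranges. A fit to the median rate of tested genes gave 2.66 h in YBX1-/- and 2.76 h in WT. Idh2 thus had the longer half-life of label in YBX1-/- in both kinds of fit, as did Idh1 (3.79 h in YBX1-/- and 3.32 h in WT by the log-linear fit). The order depended on the fit for Tet3, for Dnmt3a (3.39 h in YBX1-/- and 2.86 h in WT by the log-linear fit) and for Uhrf1 (3.81 h in YBX1-/- and 3.67 h in WT). The log-linear half-lives come from values without the library median subtracted. By that fit the median slope of all tested genes was also shallower in YBX1-/- (-0.247 log2 per h) than in WT (-0.269).

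Other genes of methylation were read in 5 lists of 51 genes in all, of which 37 were tested. Label loss passed for 36 of 37 in YBX1-/- (all tested genes 91.5%) and 37 of 37 in WT (95.2%). None passed for the decay rate difference (0.108%) or the level difference (0%). Cofactors of maintenance and de novo methylation (9 tested of 10) had a median decay rate difference of -0.057 log2 per h, against 0.0037 over all tested genes, and a median level difference of -0.44. The smallest p of this list for the decay rate difference was that of Dnmt3l, the partner of DNMT3A without catalytic activity (-0.23, adjusted p = 0.187). Dnmt3l rates were 25, 32.6, 38.3, 20.3, 12.0, 0, 0 and 0% in YBX1-/- and 51.6, 56.4, 60.7, 21.1, 11.0, 5.80, 1.28 and 2.70% in WT.

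Enzymes of methyl donor supply (7 tested of 9) had a level difference below 0 for 7 of 7, with a median of -0.42 log2 and none past the threshold; 49.3% of all tested genes were below 0. Among them Mat2b, a regulatory subunit of the enzyme that makes S-adenosylmethionine, had the smallest p (-0.42, SE 0.17, adjusted p = 0.779). Its rates were 27.8, 42.0, 33.8, 18.1, 3.02, 2.06, 1.19 and 0.869% in YBX1-/- and 45.1, 66.1, 64.6, 36.5, 12.6, 3.26, 1.17 and 1.01% in WT. Readers of methylated CpG (7 tested of 10) spread to both sides: Zbtb33, a zinc finger protein known as Kaiso, had a decay rate difference of 0.16 log2 per h (adjusted p = 0.157) and Mbd6 a level difference of -1.89 log2 (adjusted p = 0.779). Of the partners of TET and the base excision genes, 4 of 10 were tested, and Gadd45b, linked to active demethylation, had a decay rate difference of 0.22 (adjusted p = 0.197). Enzymes of 2-oxoglutarate metabolism (10 tested of 12) were near the typical gene, with decay rate differences of -0.043 to 0.044 log2 per h. The values of Tet3 (0.088, percentile 83.7 of tested genes) and Idh2 (0.085, percentile 82.8) are outside that range. They are also above the highest value of the cofactor list (0.073) and of the methyl donor list (0.066). Both are inside the ranges of the CpG readers (-0.12 to 0.17) and of the TET partners and base excision genes (-0.12 to 0.22).

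The centred profiles of the members were not alike over the 16 libraries. Of the 21 pairs, Dnmt3a and Tet2 were most alike (Pearson r = 0.70) and Dnmt3a and Tet3 least (r = -0.55), as a description of values that share libraries and include rates at 0. The genes most like the mean profile of the 7 genes were Irak4 (r = 0.96), Aph1a (r = 0.93), Trim39 (r = 0.93), Chka (r = 0.92) and Tmem126b (r = 0.92), by Pearson r over the 16 libraries. They were picked for the highest r among all other tested genes, and the mean profile also includes rates at 0.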

How the data were processed

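SLAM-seq libraries of 8 YBX1-/- and 8 WT time points were used, 1 per genotype and time, grouped by the genotype and time labels. The authors deposited the T-to-C rate per 3′ UTR interval and library as a fraction. No source used here says whether its denominator is reads or covered Ts. Per the file headers, mean CPM and mean coverage signal on Ts over the libraries were deposited too. The tools CASAVA and HISAT2 2.1.0 are named in the submitters' processing notes, with the human build GRCh38, although the samples are mouse. Interval sequences taken from GENCODE transcripts of GRCm38 had the deposited T content for all 21088 genes with a sequence. The depth per library is unknown, so rates have no counting interval, and no unlabelled library gave a background.

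The interval of highest mean CPM was used for each gene. Rates in percent were analysed as log2(rate + 0.1) with limma 3.58.1 (R 4.3.3, trended variances), fitted over 7411 genes with Benjamini-Hochberg adjustment at 0.05. The added 0.1 shrinks differences of rates near 0, and a 0 against a higher rate still gives a large one. Label loss was a line over hours per genotype. The decay rate difference was the interaction of genotype and hours, and the level difference the genotype term, both with time point as a factor and the library median subtracted. Half-lives with a floor were fitted with scipy 1.17.1, and over all tested genes on a grid of decay constants. The members, lists and tests were chosen with earlier results of these data known; of each list, genes with the smallest unadjusted p were named.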

Additional observations from a re-analysis of the deposited data

Results flagged for a closer look

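Idh2 went opposite ways in the first and the last window of the chase. Its centred difference (YBX1-/- minus WT) was -0.30 log2 at 0 to 1 h (percentile 15.5 of tested genes), with YBX1-/- lower at 3 of 3 times. At 12 to 24 h it was 1.64 log2 (percentile 86.6), with YBX1-/- higher at 3 of 3 times. Dnmt3a had a centred difference of 0.21 log2 at 0 to 1 h (percentile 75.9), with YBX1-/- higher at 3 of 3 times. At 3 to 6 h it was -0.31 log2 (percentile 29.1), with YBX1-/- lower at 2 of 2 times. Before centring, Dnmt3a rates were lower in YBX1-/- at all of these 5 times (34.3 to 40% in YBX1-/- and 42.2 to 49.0% in WT at 0 to 1 h), so its turn in direction appears with the library median subtracted. In both cases the difference between windows was not tested, and the share of tested genes with such a turn was not counted. Coverage per T was 150 for Idh2 and 1.95 for Dnmt3a.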

How the results depend on the processing

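Label loss kept its direction and passed for the 7 genes under the settings that fitted uncentred values and kept them. Without the filter on low values, which adds Dnmt3b and Tet1, 8 of 9 passed in YBX1-/- and 7 of 9 in WT. Over all genes of that setting, 7497 of 13422 passed in YBX1-/- and 8153 of 13422 in WT. Filtering to rates above 0 in all 16 libraries left 2836 genes, of which 2810 were called in YBX1-/- and 2807 in WT. It kept 4 of the 7 genes, all called in both genotypes. With the library median subtracted, 0 of 7 passed in either genotype. Of the 7411 tested genes, 57 passed in YBX1-/- and 340 in WT. The slope was then positive for Tet3 (0.072) and Idh2 (0.028) in YBX1-/- and for Tet2 in WT (0.00018). For the decay rate difference the number of genes called was 1 with a pseudocount of 0.01 and 1 with 0.5, 0 without the filter on low values, 268 over 0 to 12 h (where 1 of the 7 genes passed, Idh2 at 0.23), 0 over 0 to 6 h, 0 without the YBX1-/- 0 h library, and 0 to 204 when single time points were left out (204 without 12 h, 91 without 18 h). For the level difference, 2 genes were called without the filter. The sign of the decay rate difference turned for Dnmt1 with a pseudocount of 0.01 (0.016) and without 24 h (-0.11 to 0.047 left out in turn); for Dnmt3a without the filter (-0.012), with intervals weighted by CPM (-0.046), over 0 to 6 h (-0.079) and without 12 h (-0.0067 to 0.12 left out in turn); for Idh1 without the filter (-0.030) and over 0 to 12 h (-0.0051); for Uhrf1 over 0 to 12 h (0.024), without 18 h (-0.053 to 0.019 left out in turn) and without centring (0.010); for Tet2 over 0 to 12 h (0.15), without 18 h (-0.11 to 0.035 left out in turn) and with its second interval, chosen after seeing the data (0.020); and for Tet3 over 0 to 12 h (-4.99e-05) and 0 to 6 h (-0.063). The level difference turned for Tet3 with a pseudocount of 0.5 (-0.049), weighted intervals (-0.020), 0 to 12 h (-0.47), 0 to 6 h (-0.50), without 18 h or 24 h (-0.22 to 0.11 left out in turn) and without centring (-0.34); for Dnmt3a over 0 to 6 h (-0.00105) and without 12 h (-0.026 to 0.90 left out in turn); for Dnmt1 without 18 h (-0.21 to 0.55 left out in turn) and without centring (-0.15); for Idh1 without centring (-0.095); and for Idh2 over 0 to 6 h (-0.10). The cause was not tested. Adjusted p of the decay rate difference was 0.0423 to 0.966 for Idh2 and 0.0525 to 0.999 for Tet3 over all settings. Both fits of a difference pair the genotypes by time point; the labels give no replicate numbers for a further pairing. Rates near 0 and coverage below 10 per T limit Dnmt3a, Tet2 and Tet3.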

Other observations

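The AU-rich pentamer ATTTA was distributed unevenly among the long intervals. Tet3 held 17, as many as 16.4% of intervals of like length hold, and Tet2 held 7. Dnmt3a, with the second longest interval of the 9 genes, held 3, while 98.5% of intervals of like length hold as many. Idh1 held 0, and 67.9% of intervals of its length class hold at least 1. Of other seed matches, that of miR-26a (TACTTGA) occurred 2 times each in Tet1 (as many in 13.3% of intervals of like length), Tet2 (3.08%) and Tet3 (8.52%), once in Dnmt3a (40.9%) and in none of the other 5 intervals. That of miR-22 (GGCAGCT) occurred 2 times in Tet1 (10%) and Dnmt3a (8.37%), once in Tet2 (26.1%), Tet3 (42.6%) and Uhrf1 (12.8%), and in none of the other 4.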
